A study of Mus musculus with 8 samples.

Results

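A set of 5 transcripts named in earlier cartilage or craniofacial work as targets of miR-140-5p was followed in rib chondrocytes that lack *Mir140*. Its members are *Hdac4*, *Dnpep*, *Pdgfra*, *Sp1* and *Rala*. They were chosen by name, and each has a single row among the 52325 gene identifiers in every library. All 5 passed the filter on low values, at least 0.5 TPM (a level scaled by transcript length and by the total of the library) in at least 4 of 8 libraries, which kept 17177 genes.

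Costal chondrocytes were freed from the ribs of mice at 7 days of age with collagenase, and stranded poly(A) RNA libraries were sequenced single-end. There were 4 wild-type and 4 *Mir140*-null libraries, both on a C57BL/6J background, and both lines descended from crosses of heterozygous carriers. The null allele was made by CRISPR in mixed C57BL/6 and CBA animals that were then backcrossed, and removes the whole *Mir140* locus, so that miR-140-5p and miR-140-3p are lost together in every cell of the animal, and a change cannot be assigned to either strand of the hairpin from genotype. The labels do not say that every library came from its own animal, so the p-values measure the spread between these libraries.

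A microRNA guides Argonaute to messenger RNAs mainly through its seed, bases 2 to 8 of the mature strand, which pairs with short words in the 3′UTR and usually lowers the stability and translation of the transcript. Loss of a microRNA can therefore raise the RNA of its targets, although repression at the level of translation alone leaves no trace in RNA-seq. miR-140 lies in an intron of *Wwp2* and is best known from cartilage and from the skeleton of animals that lack it.

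The words that miR-140-5p can pair with were searched on the sense strand of 3′UTRs, taking for every gene the longest one in GENCODE M21 (mm10). A 7-base match is AACCACT (7m8) or ACCACTA (7a1), an 8-base match is AACCACTA, and a 6-base match is ACCACT outside the longer ones. *Hdac4*, *Pdgfra* and *Rala* each hold 2 matches of 7 or 8 bases, and *Dnpep* and *Sp1* hold none. The 6 sites are shown because they split the 5 transcripts into those with and without such a match, with 30 bases of the sense strand at each and the match in capitals.
Hdac4, 443 bases after the stop codon, chr1:91932887-91932916, minus strand: agtctccgtgtaAACCACTcaactcatctt
Hdac4, 1935 bases after the stop codon, chr1:91931395-91931424, minus strand: atgtggacttgtAACCACTccatcaggata
Pdgfra, 57 bases after the stop codon, chr5:75195145-75195174, plus strand: taaccttaagaaAACCACTtcattgcaatg
Pdgfra, 502 bases after the stop codon, chr5:75195590-75195619, plus strand: aagtacatgcaaAACCACTttgaactttgg
Rala, 1305 bases after the stop codon, chr13:17881056-17881085, minus strand: aatgggaagtaAACCACTAttaggtttttt
Rala, 1640 bases after the stop codon, chr13:17880721-17880750, minus strand: accagggtcctAACCACTAacattgcaatt

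Both *Rala* sites were of 8 bases, while the 4 sites of *Hdac4* and *Pdgfra* were of 7 bases with no A after the match. The 2 *Pdgfra* sites lay in the first 16.1% of a 3′UTR of 3115 bases, and those of *Hdac4* at 9.7% and 42.4% of 4568 bases. The *Rala* sites lay at 72.2% and 90.7% of 1808 bases. Longer 3′UTRs hold more matches of any word. Among tested genes whose 3′UTR length was within 20% of that of the member, at least 2 matches of 7 or 8 bases were held by 8.12% for *Hdac4* (899 genes), 4% for *Pdgfra* (1575 genes) and 1.51% for *Rala* (1992 genes), and 2 matches of 8 bases by 0.1% in the last case. Among genes of like length to *Dnpep* (1317 bases) and *Sp1* (5372 bases), no match of 7 or 8 bases was held by 87.2% and 59.8%. Over all 12981 tested genes with a 3′UTR, 14.3% held at least 1 match and 2.22% held 2 or more.

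*Dnpep* and *Sp1* did hold 6-base matches of miR-140-5p, 1 and 2 in number, and *Pdgfra* held 3 beside its longer ones. Since the deletion also removes miR-140-3p, its words were searched as well. RefSeq (GRCm38.p6) gives the mature strand, shown because its seed differs from the miR-140-5p words above, with bases 2 to 8 in capitals.
mmu-miR-140-3p, chr8:107551288-107551308, plus strand: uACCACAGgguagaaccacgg
This seed belongs to the form called miR-140-3p.2, and pairs with CTGTGGT. The form called miR-140-3p.1 starts a base later and pairs with CCTGTGG, so the searched words of both forms overlap. *Hdac4* held 3 matches of 7 bases for miR-140-3p.1, *Sp1* held 2 and *Dnpep* held 1, and *Pdgfra* held 1 for miR-140-3p.2. *Rala* held no match of 7 or 8 bases for either form. Holding at least 1 match of 7 or 8 bases is common for these words. Among tested genes with a 3′UTR, 30.3% held a match of miR-140-3p.1 and 24.9% a match of miR-140-3p.2. Several matches were less common, since 9.28% of these genes held 2 or more of miR-140-3p.1, and 2.8% held 3 or more. These shares were not matched for 3′UTR length, and longer 3′UTRs hold more matches of any word. A match describes the sequence and says nothing of whether the microRNA binds there.

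**Figure D1:**
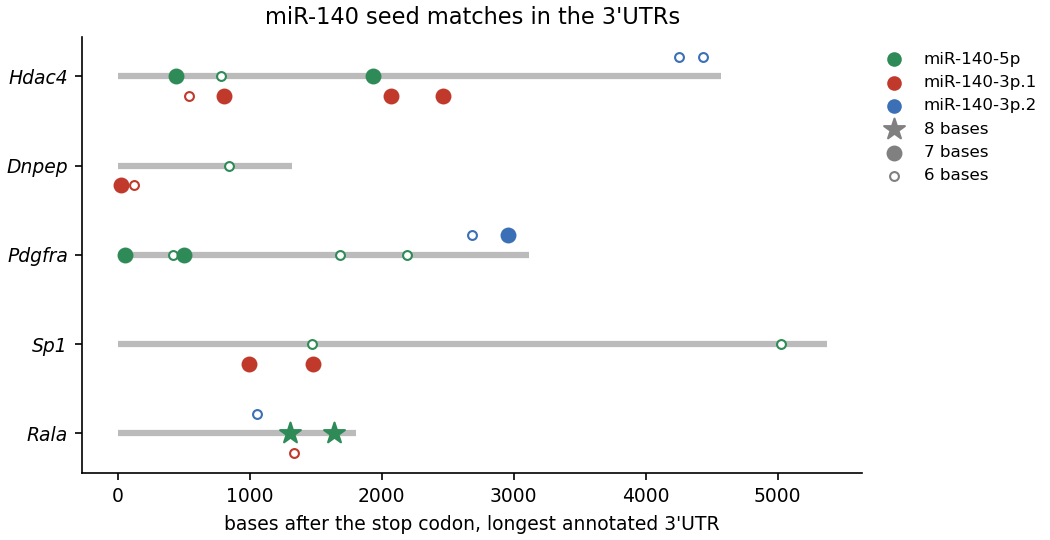
Seed matches in green for miR-140-5p, in red for miR-140-3p.1, whose seed is shifted, and in blue for miR-140-3p.2, along the longest 3′UTR of the 5 genes, drawn to scale in bases after the stop codon. Stars mark matches of 8 bases, filled circles 7 bases and open circles 6 bases, and *Rala* carries both stars while *Dnpep* and *Sp1* carry no filled green mark.

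Some facts of the libraries touch the values that follow. The row of *Mir140* itself held 0 in 7 libraries, every wild-type one included, and 8.87 TPM in the library labelled null replicate 2, so this row offers no check of the genotypes. The groups were taken from the labels, and the study genotyped its mice by PCR. Its host gene *Wwp2* averaged 380.3 ± 55.8 TPM in wild-type libraries and 340.4 ± 56.5 TPM in null ones (SD, n = 4, limma adjusted p = 0.487). The 8 chondrocyte markers were present throughout, with a summed level of 5.63e+04 to 7.13e+04 TPM in wild-type and 4.10e+04 to 5.67e+04 TPM in null libraries. *Acan*, the aggrecan core protein, was up-regulated, and *Col9a1*, *Col11a1* and *Hapln1* were down-regulated. Libraries labelled null replicates 1 and 2 stood apart, since the summed level of 8 perichondrium and fibroblast markers was 227.9 TPM in each of them, against 3863 and 2484 TPM in null replicates 3 and 4 and 2094 to 4360 TPM in wild-type libraries. In those libraries *Col1a1*, the main collagen of bone and fibrous tissue, was at 47.9 and 50.1 TPM, against 792.6 to 1544 TPM in wild-type. Not every marker of that list was low in them, since the transcription factor *Prrx1* was at 12.3 and 8.95 TPM, against 7.50 to 12.2 TPM in wild-type, and *Twist2*, another transcription factor, was at 1.22 and 1.44 TPM, above 0.606 to 0.974 TPM, and was up-regulated over the 4 null libraries (limma adjusted p = 0.0344). The summed endothelial (3.98 and 5.26 TPM), red blood cell (431.8 and 256.4 TPM), osteoblast (4.15 and 3.83 TPM) and macrophage markers (17.3 and 16.8 TPM) of these libraries also lay below those of every wild-type library, which started at 6.02, 645.6, 7.81 and 21.7 TPM. Some single markers of these lists lay inside their wild-type range there. The red blood cell marker *Alas2* was at 2.44 and 1.32 TPM, against 0.988 to 5.95 TPM in wild-type. *Cdh5* and *Csf1r* in null replicate 2, and *Bglap* and *Dmp1* in null replicate 1, lay inside as well. Most of the macrophage sum was *Cd68* (16.7 and 16.0 TPM). Mitochondrially encoded genes took 4.06% to 6.99% of wild-type and 8.41% to 10.1% of null libraries. The summed level of 5 skeletal muscle markers, 67.5 to 83.1 TPM in wild-type and 32.6 to 58.7 TPM in null libraries, also did not overlap. The part of these differences in the results was not tested, and the calls among the 5 genes and the 6 comparison lists are given also without null replicates 1 and 2.

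Genotypes were compared with limma on log2(TPM + 1), with p-values adjusted over the 17177 genes by the Benjamini-Hochberg method. On this scale the log2 fold change of a gene at a few TPM is smaller than the log2 ratio of its levels. Of the 5 members, *Pdgfra* passed an adjusted p under 0.05 and was up-regulated, while *Hdac4*, *Dnpep*, *Sp1* and *Rala* did not pass in either direction. Of all tested genes 16.9% were called, 10.5% as up-regulated and 6.4% as down-regulated, so that 1 called gene among 5 is close to the background. After median-ratio scaling between libraries, which gave a nearly even split (50.9% of called genes up-regulated, against 62.0% without it), *Pdgfra* was again called. Bulk RNA cannot tell fewer cells of a type from less RNA per cell.

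*Pdgfra* (ENSMUSG00000029231, mm10 chr5:75152292-75198215, plus strand) encodes platelet-derived growth factor receptor alpha, a receptor tyrosine kinase of mesenchymal cells and a mark of skeletal and craniofacial progenitors. Wild-type libraries 1 to 4 had 11.8, 19.8, 17.3 and 17.1 TPM, and null libraries 34.5, 36.5, 31.5 and 34.3 TPM. Every null library thus stood above every wild-type library, and the null libraries varied less among themselves than the wild-type ones did. The mean rose from 16.5 ± 3.38 to 34.2 ± 2.06 TPM (SD, n = 4 each), a log2 fold change of 1.03 (SE 0.16, 95% confidence interval 0.67 to 1.39, limma adjusted p = 0.00846). The exact permutation test over the 70 assignments of the libraries gave p = 0.0286, two-sided, the smallest that this design allows. Non-overlapping groups were seen for 25.9% of tested genes, and 3.17% had a log2 fold change as high as that of *Pdgfra*.

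*Pdgfra* lay above its wild-type range in null replicates 1 and 2, where the summed fibroblast markers were low, and in replicates 3 and 4 too. With replicates 1 and 2 left out, an alternative chosen after seeing the data, its log2 fold change was 0.98 (SE 0.21), but the limma adjusted p was 0.0595 with 2 null libraries left, and no member was then called. With each library left out in turn, the log2 fold change lay between 0.89 and 1.12 and the limma adjusted p between 0.015 and 0.0312. Without mitochondrially encoded genes the log2 fold change was 1.09 (limma adjusted p = 0.00661).

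*Rala* (ENSMUSG00000008859, mm10 chr13:17880571-17944239, minus strand) encodes a small GTPase of the RAS superfamily that acts on the exocyst and on membrane traffic. Its levels were 8.64, 12.2, 15.0 and 11.0 TPM in wild-type libraries and 21.3, 12.4, 15.9 and 17.7 TPM in null libraries. All 4 null libraries lay above the wild-type mean and 3 lay above every wild-type library, but null replicate 2 fell inside the wild-type range. The means were 11.7 ± 2.65 and 16.8 ± 3.68 TPM, a log2 fold change of 0.49 (SE 0.20, 95% confidence interval 0.02 to 0.96). The unadjusted limma p was 0.0424 and the adjusted limma p was 0.133, and the exact permutation p was 0.0571. An unadjusted limma p under 0.05 was reached by 33.9% of tested genes.

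*Sp1* (ENSMUSG00000001280, mm10 chr15:102406143-102436404, plus strand) encodes a zinc-finger transcription factor that binds GC boxes in many promoters. It had 66.0, 76.0, 47.9 and 87.8 TPM in wild-type libraries and 56.4, 132.5, 111.7 and 95.2 TPM in null libraries. Null replicate 1 lay inside the wild-type range and the other 3 null libraries lay above it. The means were 69.4 ± 16.9 and 98.95 ± 32.2 TPM, a log2 fold change of 0.47 (SE 0.28, 95% confidence interval -0.18 to 1.12, limma adjusted p = 0.275). Its estimate had the widest interval of the 5 members, and with libraries left out in turn it lay between 0.31 and 0.72.

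*Hdac4* (ENSMUSG00000026313, mm10 chr1:91928779-92195699, minus strand) encodes a class IIa histone deacetylase that binds MEF2 and RUNX2 and delays chondrocyte hypertrophy. Its levels were 10.7, 15.9, 14.1 and 11.7 TPM in wild-type libraries and 8.29, 8.54, 14.3 and 16.0 TPM in null libraries. The null libraries fell on both sides of the wild-type range. Replicates 1 and 2, the libraries with a low sum of fibroblast markers, lay below it, replicate 4 slightly above it and replicate 3 inside it. The means were 13.1 ± 2.33 and 11.8 ± 3.95 TPM, a log2 fold change of -0.18 (SE 0.24, 95% confidence interval -0.72 to 0.36, limma adjusted p = 0.622). Without null replicates 1 and 2 the sign turned, with a log2 fold change of 0.21 (SE 0.18, limma adjusted p = 0.521), and it was also positive, at 0.17, with 1 factor of unwanted variation estimated from the least changed genes. The direction of *Hdac4* was thus not settled, since the interval spans 0 and the sign changed with the setting.

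*Dnpep* (ENSMUSG00000026209, mm10 chr1:75307896-75317990, minus strand) encodes aspartyl aminopeptidase, a cytosolic enzyme that removes acidic residues from peptide N termini. Its levels were 9.21, 8.80, 9.53 and 9.66 TPM in wild-type libraries and 6.60, 10.3, 8.05 and 8.39 TPM in null libraries. Wild-type libraries were nearly alike, and the null libraries spread around them, with 3 below and 1 above the wild-type range. The means were 9.30 ± 0.381 and 8.35 ± 1.55 TPM, a log2 fold change of -0.15 (SE 0.14, 95% confidence interval -0.48 to 0.17, limma adjusted p = 0.474). The upper end of this interval is a 1.12-fold rise on the log2(TPM + 1) scale, and the interval takes no account of the library differences given above.

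**Figure D2:**
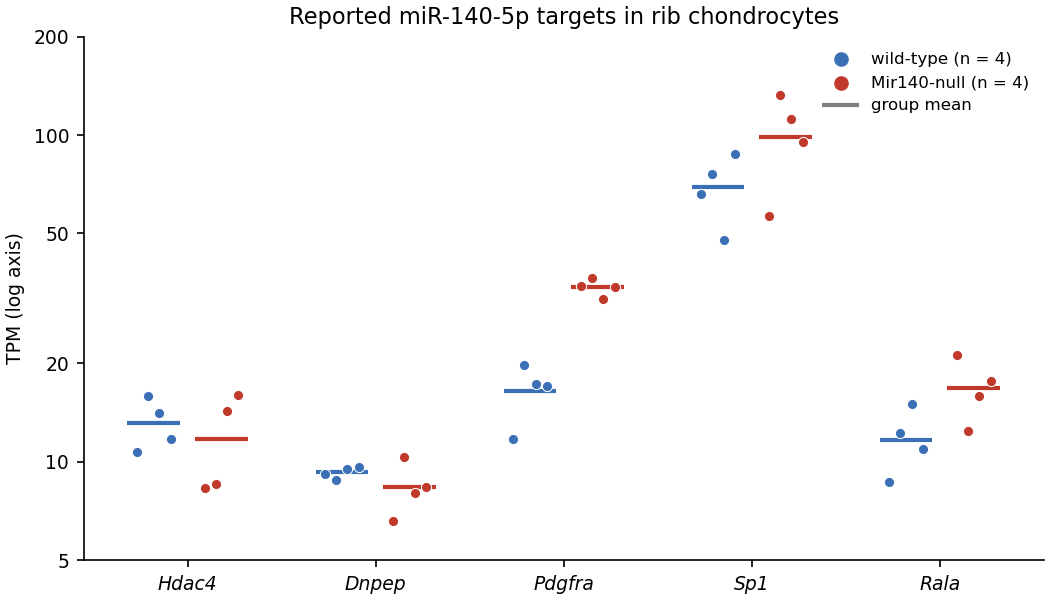
TPM of the 5 transcripts in each library on a log axis, with wild-type in blue, *Mir140*-null in red, replicates 1 to 4 from left to right and a line at each group mean. The 4 null libraries of *Pdgfra* lie between 31.5 and 36.5 TPM, above all wild-type libraries, while the groups overlap for the other 4 genes.

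The order of the levels was similar in both genotypes. In wild-type chondrocytes *Sp1* was highest, above *Pdgfra*, *Hdac4*, *Rala* and *Dnpep*, and its range did not overlap that of the next gene, whereas the ranges of neighbors among the other 4 genes overlapped. In null chondrocytes the order was *Sp1*, *Pdgfra*, *Rala*, *Hdac4* and *Dnpep*. There *Pdgfra* also stood apart from the genes below it, since its lowest null library (31.5 TPM) lay above the highest value of *Rala* (21.3 TPM). The 3 transcripts with 2 matches each had log2 fold changes of 1.03 (*Pdgfra*), 0.49 (*Rala*) and -0.18 (*Hdac4*), and the other 2 had 0.47 (*Sp1*) and -0.15 (*Dnpep*). *Rala*, the transcript with both 8-base matches, was not called. The matches counted here are those of miR-140-5p, and *Sp1* and *Dnpep*, like *Hdac4*, hold 7-base matches of miR-140-3p.1. Whether any match bears on these levels was not tested.

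Of the ligands and receptors around *Pdgfra*, *Pdgfa* and *Pdgfb* were up-regulated and the others were not called. *Pdgfa*, a ligand that binds the alpha receptor, had 11.6, 16.4, 16.5 and 18.6 TPM in wild-type libraries and 25.9, 23.3, 23.4 and 31.9 TPM in null libraries. All null libraries lay above all wild-type libraries, and the log2 fold change was 0.70 (SE 0.17, limma adjusted p = 0.0293). *Pdgfb*, a ligand of both receptors, rose from 1.91 ± 0.635 to 4.53 ± 1.60 TPM without overlap (log2 fold change 0.91, SE 0.25, limma adjusted p = 0.0413). *Pdgfrb*, the beta receptor, had 7.50 ± 0.861 TPM in wild-type and 6.59 ± 2.16 TPM in null libraries (log2 fold change -0.20, SE 0.22, limma adjusted p = 0.539), and was at 4.28 and 5.22 TPM in null replicates 1 and 2, below its wild-type range. *Pdgfc*, another ligand of the alpha receptor, was at 3.64 ± 0.499 and 2.97 ± 0.756 TPM (limma adjusted p = 0.361). *Pdgfd* stayed under the filter, at 0.362 and 0.359 TPM.

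In the list of 23 PDGF ligands, receptors, activating proteases and adaptors, 22 were tested, and 7 were up-regulated and 1 down-regulated. Of all tested genes, 10.5% were up-regulated and 6.4% down-regulated. The list had a median log2 fold change of 0.21, against -0.01 over all tested genes. Without *Pdgfra* the median was 0.19. The largest rise was in *Plau*, urokinase, a serine protease that activates plasminogen and can process PDGF-D, from 108.5 ± 13.7 to 307.0 ± 104.6 TPM (log2 fold change 1.44, SE 0.23, limma adjusted p = 0.01). *Plat*, tissue plasminogen activator, which can process PDGF-C, was the gene that fell, from 22.3 ± 5.03 to 10.6 ± 4.06 TPM (log2 fold change -1.05, SE 0.27, limma adjusted p = 0.0344). The adaptors *Crk* and *Crkl*, which bind tyrosine-phosphorylated proteins, rose by log2 fold changes of 0.88 (SE 0.16, limma adjusted p = 0.014) and 0.54 (SE 0.14, limma adjusted p = 0.0351). Without null replicates 1 and 2, 2 genes of this list were called as up-regulated, *Plau* (log2 fold change 1.02, limma adjusted p = 0.0294) and *Pdgfb* (1.25, limma adjusted p = 0.0487), and no gene was called as down-regulated. There *Plat* had a log2 fold change of -0.63 (limma adjusted p = 0.155), and *Crk* had 0.65 (limma adjusted p = 0.0577) and *Crkl* 0.40 (limma adjusted p = 0.138). There *Pdgfa* kept a log2 fold change of 0.77, with a limma adjusted p of 0.1.

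*Ralb*, the close relative of *Rala*, was up-regulated and had the smallest adjusted p among the genes of the 6 lists used here. Its levels were 11.1, 12.0, 12.5 and 10.8 TPM in wild-type libraries and 22.8, 24.5, 22.1 and 19.2 TPM in null libraries. The groups did not overlap, and the log2 fold change was 0.88 (SE 0.11, 95% confidence interval 0.62 to 1.13, limma adjusted p = 0.00596). It was called in all of the settings tried, also without null replicates 1 and 2 (0.78, limma adjusted p = 0.0385). The longest 3′UTR of *Ralb* (1401 bases) holds no match of 7 or 8 bases for either strand of the hairpin. That of *Rala* holds 2 of the 8-base matches shown above. Whether a match bears on the level of either gene was not tested. The RAL list also holds exchange factors, GTPase-activating complexes and exocyst subunits. Of its 23 tested genes limma called *Ralb* as up-regulated and 0 as down-regulated, while 4 were higher and 1 was lower at an unadjusted limma p under 0.05, a share below the 33.9% of all tested genes, and the median was -0.01, as over all genes.

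*Sp1* was the most abundant of its relatives. *Sp3*, which binds the same GC boxes, had 26.0 ± 4.34 TPM in wild-type and 24.9 ± 4.88 TPM in null libraries, *Sp2* had 6.01 ± 0.617 and 7.77 ± 1.21 TPM, and *Sp4* had 4.04 ± 0.538 and 3.22 ± 1.25 TPM. None of the 3 was called (limma adjusted p = 0.82, 0.158 and 0.376). Limma called 16.9% of all tested genes in either direction. Of the 12 SP factors and cofactors that were tested, *Hcfc1*, a chromatin-bound transcriptional coregulator, was the one called, with a log2 fold change of 0.45 (SE 0.12, limma adjusted p = 0.0423). That call was lost with each library left out in turn (log2 fold changes 0.36 to 0.50) and without null replicates 1 and 2 (0.39, limma adjusted p = 0.183).

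Among the class IIa relatives of *Hdac4*, *Hdac5* was the most abundant. It had 85.5, 91.9, 81.9 and 92.1 TPM in wild-type libraries and 47.5, 49.2, 79.4 and 64.6 TPM in null libraries. Every null library lay below every wild-type library, but the log2 fold change of -0.57 (SE 0.17) had a limma adjusted p of 0.0519, just past the threshold. It was called with a mean of at least 5 TPM (limma adjusted p = 0.0462), median-ratio scaling (-0.59, limma adjusted p = 0.0256), quantile normalization (-0.74, limma adjusted p = 0.0266), a factor of unwanted variation from residuals (limma adjusted p = 0.0076) and without null replicate 3 (-0.71, limma adjusted p = 0.0199). It was -0.29 without null replicates 1 and 2 (limma adjusted p = 0.201). Its longest 3′UTR holds 1 match of 7 bases for miR-140-5p. *Hdac7* (log2 fold change -0.18), with 1 match of 8 bases for miR-140-5p, and *Hdac9* (-0.19), with 1 of 7 bases, were not called either (limma adjusted p = 0.673 and 0.465). The class IIa circuit includes MEF2 and RUNX factors, the kinases that drive nuclear export, and PTHrP with its receptor. Over all tested genes, 10.5% were called as up-regulated and 6.4% as down-regulated, and 33.9% had an unadjusted limma p under 0.05. Of the 30 tested genes of this circuit, 2 were up-regulated and 0 down-regulated by limma, against 6 and 3 at an unadjusted p under 0.05. Both are 14-3-3 proteins, which hold phosphorylated class IIa deacetylases in the cytoplasm, *Ywhag* (log2 fold change 0.66, SE 0.17, limma adjusted p = 0.0342) and *Ywhab* (0.42, SE 0.11, limma adjusted p = 0.0358). Their log2 fold changes were 0.65 and 0.38 without null replicates 1 and 2, and neither was called (limma adjusted p = 0.149 and 0.116). The list median was 0.10.

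*Dnpep* has no close relative, so other aminopeptidases were taken for comparison. Of 20 tested, 5 were up-regulated and 0 down-regulated by limma (8 and 1 at an unadjusted p under 0.05), with a median log2 fold change of 0.08. The shares over all tested genes were 10.5% up-regulated, 6.4% down-regulated and 33.9% at an unadjusted limma p under 0.05. The 5 were *Metap2* and *Metap1*, which remove the initiator methionine, *Pepd*, a prolidase, *Erap1*, which trims peptides in the endoplasmic reticulum, and *Rnpepl1*. *Metap2* rose from 104.1 ± 12.6 to 175.9 ± 25.2 TPM (log2 fold change 0.75, SE 0.13, limma adjusted p = 0.0129), and *Erap1* from 9.19 ± 3.04 to 19.3 ± 4.30 TPM (1.03, SE 0.26, limma adjusted p = 0.0336). None of the 5 was called without null replicates 1 and 2, where their log2 fold changes were 0.60 (*Metap2*), 0.42 (*Metap1*), 0.57 (*Pepd*), 0.79 (*Erap1*) and 0.57 (*Rnpepl1*), with limma adjusted p-values from 0.0617 to 0.191.

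With each library left out in turn, the calls of *Ralb*, *Plau*, *Crk* and *Metap2* stood in 8 of 8 fits, with limma adjusted p-values up to 0.044. That of *Metap1* stood in 4, those of *Plat* and *Pepd* in 3, those of *Ywhag*, *Pdgfa* and *Erap1* in 2, those of *Crkl*, *Pdgfb* and *Rnpepl1* in 1, and that of *Ywhab* in 0, with limma adjusted p-values up to 0.0937.

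**Figure D3:**
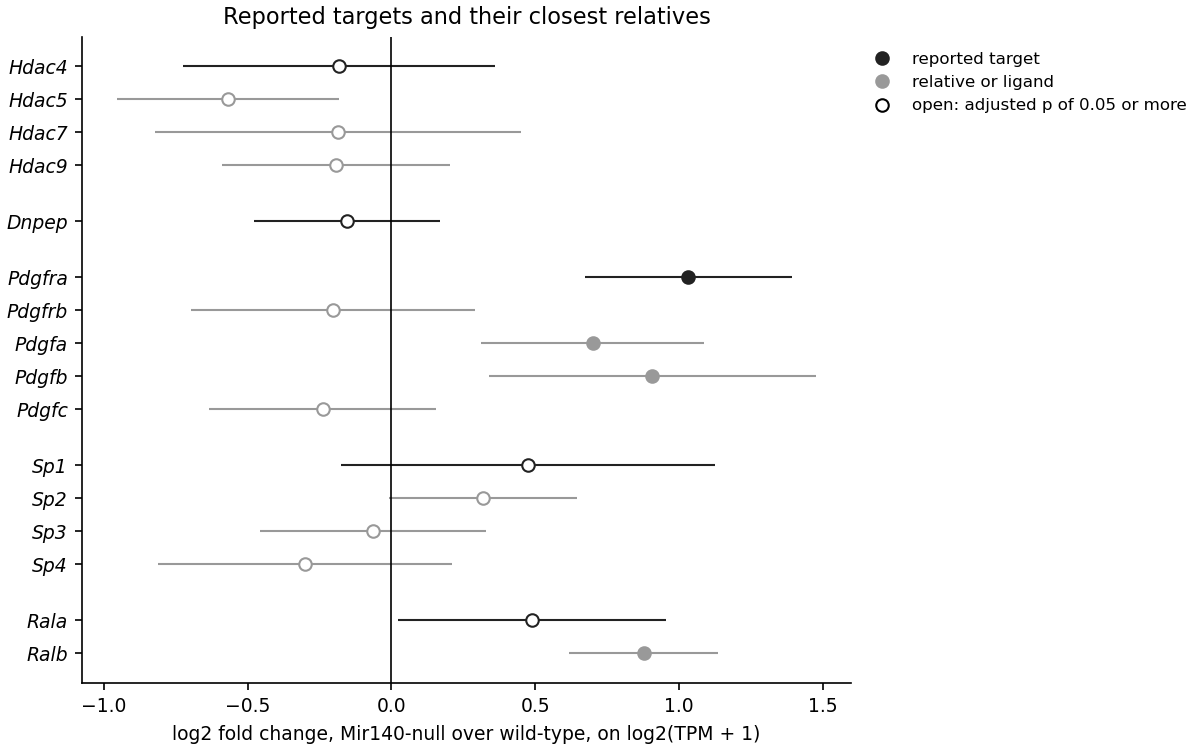
Log2 fold change of *Mir140*-null over wild-type on log2(TPM + 1) for the 5 transcripts (black) and their closest relatives or ligands (gray), with 95% confidence intervals from limma. Filled points have an adjusted p under 0.05, and they are *Pdgfra* (1.03), *Pdgfa* (0.70), *Pdgfb* (0.91) and *Ralb* (0.88).

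Shares within a family do not depend on the scaling between libraries. *Pdgfra* made up 63.5%, 69.4%, 70.3% and 70.4% of the summed TPM of both PDGF receptors in wild-type libraries, and 89.0%, 87.5%, 78.5% and 80.7% in null libraries. The groups did not overlap. Null replicates 1 and 2, with the lowest *Pdgfrb*, had the highest shares, and replicates 3 and 4 lay closer to wild-type. The mean was 68.4% ± 3.29 in wild-type and 83.9% ± 5.11 in null libraries (SD, n = 4), a difference of 15.5 percentage points with an exact permutation p of 0.0286, or 0.114 when adjusted over the 4 shares. Without null replicates 1 and 2 the difference was 11.2 percentage points, with an exact permutation p of 0.0667, the smallest for 4 libraries against 2.

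*Rala* made up 49.8% ± 4.37 of *Rala* and *Ralb* together in wild-type and 42.9% ± 6.82 in null libraries (exact permutation p = 0.143). The difference of -6.88 percentage points lay within the spread between libraries, so that the changes of *Rala* and *Ralb* were not shown to differ. *Sp1* made up 65.3% ± 4.30 and 72.4% ± 6.44 of *Sp1* to *Sp4* (exact permutation p = 0.143), and *Hdac4* 11.9% ± 1.91 and 14.5% ± 1.98 of the class IIa deacetylases (exact permutation p = 0.171). Each of these 3 shares had an adjusted exact permutation p of 0.171 over the 4 shares. The mean share of *Hdac4* was thus not lower in null libraries, although its mean level was. Most of this family sum is *Hdac5*, which averaged 87.85 TPM in wild-type and 60.17 TPM in null libraries, so the share also moves with *Hdac5*.

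**Figure D4:**
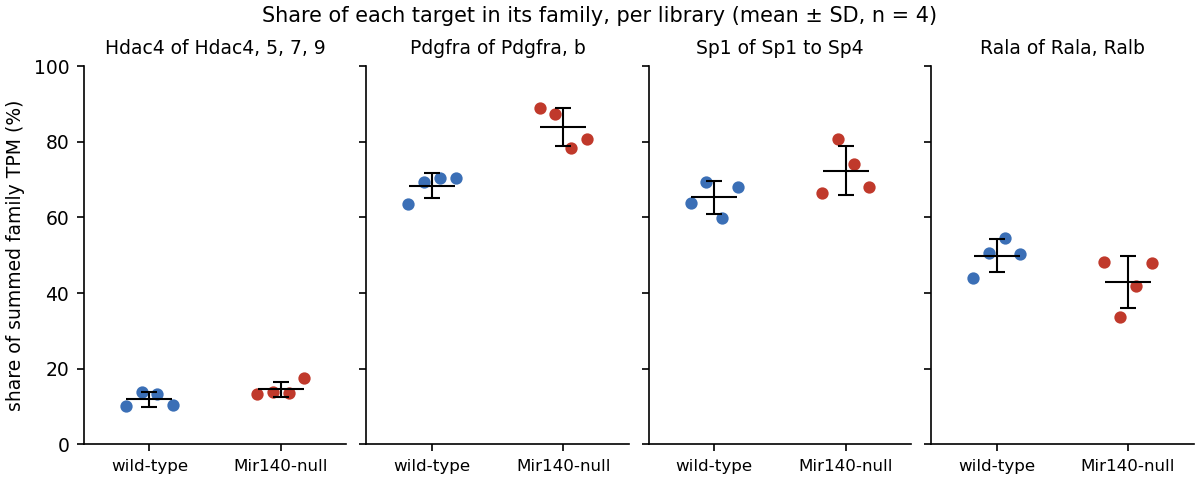
Share of each transcript in the summed TPM of its family, in percent, per library, with wild-type in blue, *Mir140*-null in red, and the mean ± SD in black. The *Pdgfra* share lies between 63.5% and 70.4% in wild-type and between 78.5% and 89.0% in null libraries, and the other 3 shares overlap.

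A further 11 transcripts tied to miR-140-5p in earlier studies were listed for comparison, and all 11 were tested. Over all tested genes, limma called 10.5% as up-regulated and 6.4% as down-regulated, and 33.9% had an unadjusted limma p under 0.05. *Fgf9*, a growth factor of skeletal development, was the 1 gene called, and limma called 0 as down-regulated (4 were higher and 0 lower at an unadjusted p under 0.05). Its wild-type libraries had 0.421, 0.378, 0.412 and 0.63 TPM and its null libraries 0.721, 1.10, 1.30 and 1.40 TPM, low levels that did not overlap (log2 fold change 0.54, SE 0.13, limma adjusted p = 0.0305). *Fgf9* passed the filter through its null libraries, since 0.63 TPM was its only wild-type value above 0.5 TPM. Its call thus rests on a filter met by the higher group. With no filter its limma adjusted p was 0.0947. Its call stood in 1 of 8 fits with a library left out (limma adjusted p = 0.0222 to 0.0791). *Mmp13*, the collagenase of hypertrophic cartilage, had 17.9 ± 2.72 and 28.0 ± 8.16 TPM (log2 fold change 0.58, limma adjusted p = 0.0967), and *Smad3*, a TGF-β effector, had 35.7 ± 11.0 and 57.9 ± 15.7 TPM (0.69, limma adjusted p = 0.122). *Adamts5*, an aggrecanase, had 1.47 ± 0.386 and 2.81 ± 2.16 TPM (0.44, limma adjusted p = 0.463). *Vegfa* (log2 fold change 0.37), *Dnmt1* (0.37), *Bmp2* (0.24), *Tgfbr1* (0.20), *Cxcl12* (-0.14), *Fzd6* (-0.33) and *Igfbp5* (-0.68) were not called, with limma adjusted p-values from 0.0809 to 0.862. The median of the 11 log2 fold changes was 0.37. Without null replicates 1 and 2, *Mmp13* (0.94, limma adjusted p = 0.0413) and *Adamts5* (1.18, limma adjusted p = 0.0415) were called, *Vegfa* had a log2 fold change of 0.06 (limma adjusted p = 0.794), and *Fgf9* could not be fitted because it did not pass the filter there.

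The transcripts whose levels ran most like each member over the 8 libraries were found by Pearson's r of log2(TPM + 1). They were sought among 8009 tested protein-coding genes with a mean of at least 5 TPM, as a description only. Since r runs over both genotypes, it takes in the genotype difference. For *Pdgfra* they were *Cd44* (r = 0.998), a hyaluronan receptor, *Snx9* (r = 0.997), a sorting nexin of endocytosis, and *Gosr2* (r = 0.995), a Golgi SNARE. All 3 were up-regulated, *Cd44* from 93.9 to 219.9 TPM (log2 fold change 1.24, limma adjusted p = 0.00699). Because r was taken over both genotypes, genes picked for *Pdgfra* share its genotype difference, so these calls add no support. With genotype means subtracted, r with *Pdgfra* was 0.979 (*Cd44*), 0.972 (*Snx9*) and 0.954 (*Gosr2*). The genes were picked by r over the same 8 libraries, so these values add no separate support either. For *Rala* they were *Glrx5*, *Ank2* and *Aamp* (r = 0.956 to 0.959), none of them called. For *Hdac4* they were *Taf13* (r = 0.988), *Klhl7* (r = 0.982) and *Mbnl1* (r = 0.972). For *Sp1* they were *Smarcad1*, *Arl5a* and *Atp6v1c1* (r = 0.915 to 0.935), and for *Dnpep* *Cyb5d1*, *Dcaf6* and *Fbrsl1* (r = 0.929 to 0.948), and the limma adjusted p of these 6 genes and of the 3 named for *Hdac4* lay between 0.299 and 0.858. No gene was named for more than 1 member. Between members, r ranged from -0.728 (*Dnpep* and *Rala*) to 0.755 (*Pdgfra* and *Rala*). With genotype means subtracted it ranged from -0.752 (*Sp1* and *Rala*) to 0.715 (*Dnpep* and *Sp1*). Either way the 5 did not vary together as a group.

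**Figure D5:**
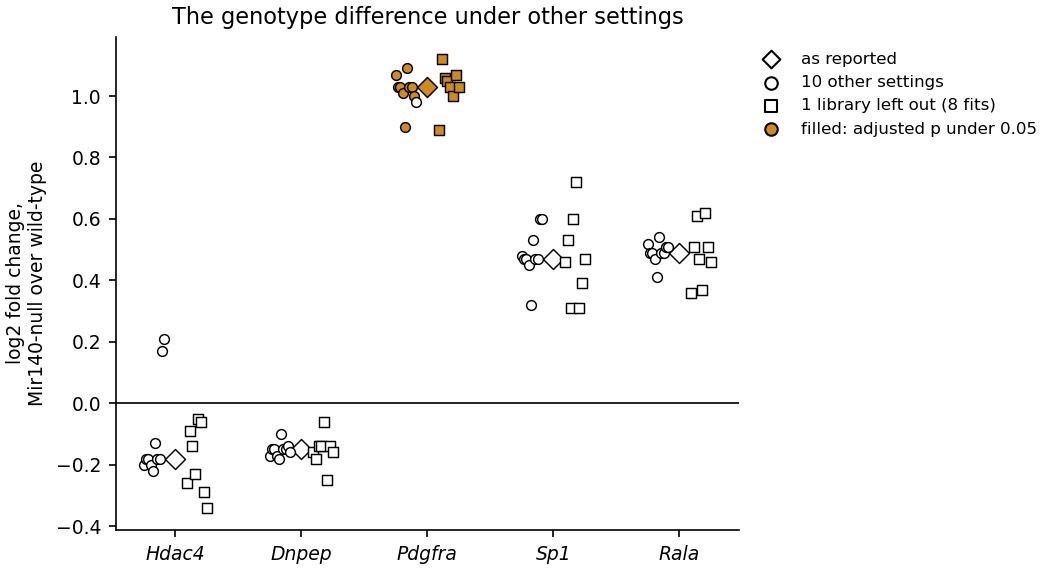
Log2 fold change of *Mir140*-null over wild-type for each transcript as reported (diamond), under 10 other settings (circles) and with 1 library left out in 8 fits (squares), filled where the limma adjusted p was under 0.05. *Pdgfra* stayed between 0.89 and 1.12 and was called in 18 of 19 fits, *Hdac4* crossed 0, and *Dnpep*, *Sp1* and *Rala* kept their sign without being called.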

How the data were processed

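RNA-seq libraries of costal chondrocytes, 4 wild-type and 4 *Mir140*-null, were grouped and numbered as the labels state. The values deposited by the authors are TPM for each Ensembl gene, and the submitters' processing notes name Salmon, mm10 and FastQC 0.11.7. The Salmon version and the step from transcripts to genes were not given in the sources used here. Identifiers repeated within a library were counted once. Depth cannot be read from TPM, so no counting error was computed. The authors' own comparison used DESeq2 on counts with RUVSeq factors, and neither is part of the TPM.

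GENCODE M21 supplied symbols and 3′UTRs, and matched 99.8% of the identifiers. The filter was 0.5 TPM in at least 4 libraries. Testing used limma 3.58.1 (R 4.3.3) on log2(TPM + 1) with a mean-variance trend, two-sided, with genotype as the only term and Benjamini-Hochberg adjustment. Single values were compared by exact permutation over 70 assignments. Other steps ran in Python 3.11.15 (NumPy 2.4.6, pandas 2.3.3, SciPy 1.17.1). The fit was tested on simulated data.

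The 5 members, the lists of relatives and the tests were chosen with earlier results of these data known. Named genes were the members, their closest relatives, at most 5 called genes per list and direction by smallest p, the further reported targets, and 3 genes per member by r. Alternatives were a pseudocount of 0.1, no filter, a mean of at least 5 TPM, median-ratio scaling, quantile normalization, mitochondrially encoded genes left out, replicate number as a block, 1 factor of unwanted variation by singular value decomposition, estimated on residuals (RUVr) or on the genes ranked after the first 5000 by p (RUVg), each library left out, and, for the shares, a log2 ratio. Matches were also counted in the union of annotated 3′UTRs. Leaving out null replicates 1 and 2 together was added after seeing the data.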

Additional observations from a re-analysis of the deposited data

Results flagged for a closer look

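In 86 groups of 4 libraries (39 genes and 4 family shares, in each genotype), 5 held a library far from the other 3 by Dixon's test at the 95% level, where chance flags about 1 group in 20. Of these, 2 concern the family shares. The *Pdgfra* share of both PDGF receptors was 63.5% in wild-type replicate 1 and 69.4% to 70.4% in the other wild-type libraries. The *Hdac4* share of the class IIa deacetylases was 17.5% in null replicate 4 and 13.3% to 13.7% in the other null libraries. *Fgf9* was at 0.63 TPM in wild-type replicate 4 and at 0.378 to 0.421 TPM in the others. *Fzd6*, a Wnt receptor, was at 3.05 TPM in wild-type replicate 1 and at 1.77 to 1.93 TPM in the others. *Metap2* was at 85.2 TPM in wild-type replicate 2 and at 109 to 111 TPM in the others. The TPM of the 5 members themselves held no such library in either genotype.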

How the results depend on the processing

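*Pdgfra* was called under 17 of 18 alternatives, the exception being the fit without null replicates 1 and 2 (0.98, limma adjusted p = 0.0595), where 0 members were called. Its log2 fold change lay between 0.89 and 1.12. RUVr, taken from the residuals of the genotype fit, could change the p-values of any gene but not its log2 fold change. *Dnpep* (-0.25 to -0.06), *Sp1* (0.31 to 0.72) and *Rala* (0.36 to 0.62) kept their direction and were not called under any alternative. *Hdac4* reversed to 0.17 with RUVg and to 0.21 without null replicates 1 and 2, and lay between -0.34 and -0.05 with each library left out. The miR-140-5p matches were as many in all annotated 3′UTRs. The cause of the changes below was not tested. TPM carry no depth, and 4 libraries a group limit the exact test to p = 0.0286.

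With RUVg the direction reversed for *Hdac7* (0.19), *Hdac9* (0.06), *Pdgfrb* (0.12), *Sp3* (0.11), *Sp4* (0.03), *Igfbp5* (0.65), *Cxcl12* (0.69) and *Bmp2* (-0.04). Without null replicates 1 and 2 it reversed for *Hdac7* (0.28), *Hdac9* (0.07), *Pdgfrb* (0.16), *Sp3* (0.15), *Sp4* (0.07), *Igfbp5* (0.83), *Cxcl12* (0.75), *Fzd6* (0.07) and *Bmp2* (-0.03). With single libraries left out, *Hdac7* lay between -0.35 and 0.07, *Sp3* between -0.17 and 0.03 (also positive at 0.02), and *Cxcl12* between -0.45 and 0.20 (also positive at 0.03 and 0.12).

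Genes called as higher, then lower, in the class IIa list were 2 and 0. The higher were 0 with no filter, RUVg or null replicates 1 and 2 left out, and 1 with median-ratio scaling or quantile normalization, and the lower 1 with a mean of at least 5 TPM or median-ratio scaling and 2 with quantile normalization or RUVr. For the PDGF list (7 and 1), the higher were 3 with no filter and 2 without null replicates 1 and 2, and the lower 0 with no filter, RUVg or without those libraries, 2 with a mean of at least 5 TPM, median-ratio scaling or quantile normalization and 3 with RUVr. For the SP list (1 and 0), the higher were 0 with no filter, median-ratio scaling, quantile normalization, RUVg or without those libraries, and 2 with RUVr. For the RAL list, the lower were 1 with RUVr. For the aminopeptidases (5 and 0), the higher were 2 with no filter or RUVg, 3 with median-ratio scaling or quantile normalization and 0 without those libraries, and the lower 1 with a mean of at least 5 TPM, median-ratio scaling, quantile normalization or RUVr. For the further reported targets (1 and 0), the higher were 0 with no filter or a mean of at least 5 TPM, 3 with RUVr, 4 with RUVg and 2 without those libraries. With each library left out, the higher were 0 to 3 (class IIa), 3 to 5 (PDGF), 0 (SP), 1 to 4 (aminopeptidases) and 0 to 1 (further targets), and the lower 0 to 1, 0 to 2, 0 to 1, 0 to 1 and 0. The *Pdgfra* share differed by 13.8 to 17.3 percentage points with each library left out, and by 11.2 without null replicates 1 and 2 (exact permutation p = 0.0667).

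Over all genes, 1797 were up-regulated and 1100 down-regulated, and without null replicates 1 and 2 these were 386 and 234. The counts were 977 and 539 with no filter, 1643 and 605 with a mean of at least 5 TPM, 2460 and 2016 with RUVr, 979 and 426 with RUVg, and 671 and 454 with replicate number as a block. Same-numbered libraries correlated by -0.00911 to 0.0688 in their deviations from the group means, and none correlated best with its own number. The values thus gave no sign of pairing by number, but weak correlations cannot show that the samples were unpaired. With the replicate block *Pdgfra* had a log2 fold change of 1.03 (limma adjusted p = 0.0417), *Smad3* was called (0.69, limma adjusted p = 0.0453), *Fgf9* was not (limma adjusted p = 0.0606), and the higher genes were 0 in the class IIa list, 4 in the PDGF list, 0 in the SP list and 1 among the aminopeptidases.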
